A study of Homo sapiens with 6 samples.

Results

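The genes described here encode the folding enzymes of the endoplasmic reticulum (ER), the machinery of ER-associated degradation (ERAD), and ERN1, a sensor of the unfolded protein response (UPR). They were taken from the count table by name from a list of 46 symbols. Of these, 45 were found among the 58735 genes of the table, and VIMP, an earlier symbol of SELENOS, was the entry without a row of its own. DERL3 had too few counts to be tested, which left 44 genes. The cells were T47D, a human line long established from a luminal breast carcinoma, with 3 control libraries (titles CK) and 3 of treated cells (titles CQ). The labels call the second group only an experimental treatment. The series title names fine particulate matter (PM2.5), and 1 protocol, worded alike for all 6 samples, places extraction 48 h into exposure. The treated group is called exposed here on that inference. No dose is stated in these sources, both groups are the same single line, and no other agent is named for either.

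Proteins that enter the ER are folded there with the help of the HSP70 chaperone BiP, of lectin chaperones that hold N-glycosylated chains, and of oxidoreductases that form and shuffle disulfide bonds. Chains that fail to fold are marked by trimming of their mannose residues, passed to a ubiquitin ligase in the ER membrane and pulled into the cytosol for the proteasome, which is ERAD. When unfolded protein builds up, the sensors ERN1 (IRE1), EIF2AK3 (PERK) and ATF6 switch on transcription of chaperone and ERAD genes. Breast epithelial cells of the luminal type carry a well-developed secretory pathway.

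Libraries held 30970218 to 36878525 counts, and libraries of 1 group differed by 7.11 to 14.9 times the sampling variance per gene (chi-square per degree of freedom), so none was a copy of another. Of the luminal markers KRT8, KRT18, KRT19, EPCAM, CDH1, GATA3, FOXA1, ESR1, PGR and TFF1, the summed level was 19209 to 21079 CPM (counts scaled to a library size of 1e6) in controls and 8122 to 10136 CPM in exposed libraries. KRT8 and KRT19 held most of this sum, at means of 8154 and 7504 CPM in controls and 3301 and 3473 CPM in exposed libraries. Of 9 tested markers 6 were lower, against 22.1% of all genes tested, and TFF1 was too low to test. EPCAM, CDH1 and GATA3 did not pass an edgeR adjusted p of 0.05 (log2 fold change 0.02, 0.08 and 0.04). Endothelial and basal markers summed to under 1 CPM in each library, and immune markers to between 3.49 and 5.87 CPM. Fibroblast markers summed to between 61.4 and 75.6 CPM, nearly all of it COL1A1, with DCN and LUM each under 1 CPM. Of 4 tested fibroblast markers 1 rose (COL1A2, near 1 CPM), against 21.8% of all genes tested. The part of these markers in the results below was not tested. In bulk RNA, fewer cells of a kind and less RNA per cell cannot be told apart, and CPM values are shares of a library, not amounts per cell.

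More of these genes rose than fell. By the quasi-likelihood test of edgeR, adjusted by Benjamini-Hochberg over all 17337 genes tested, 22 of the 44 were higher in exposed cells, against 21.8% of all genes tested, and 3 were lower, against 22.1%. In either direction, 43.9% of all genes passed. The remaining 19 did not pass an adjusted p of 0.05. The median log2 fold change was 0.20 over the 44 genes and -0.02 over all genes. Of the 44, 8 rose by at least 1.5-fold, against 8.96% of all genes tested, and the 3 that fell did so by less than 1.5-fold, whereas 11.2% of all genes fell by at least that much. In 29 of the 44 the values of both groups did not overlap, against 51.9% of all genes. Most rises were therefore small, and ERN1, HERPUD1, HYOU1, CRELD1 and MANF stood above the rest.

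**Figure D1:**
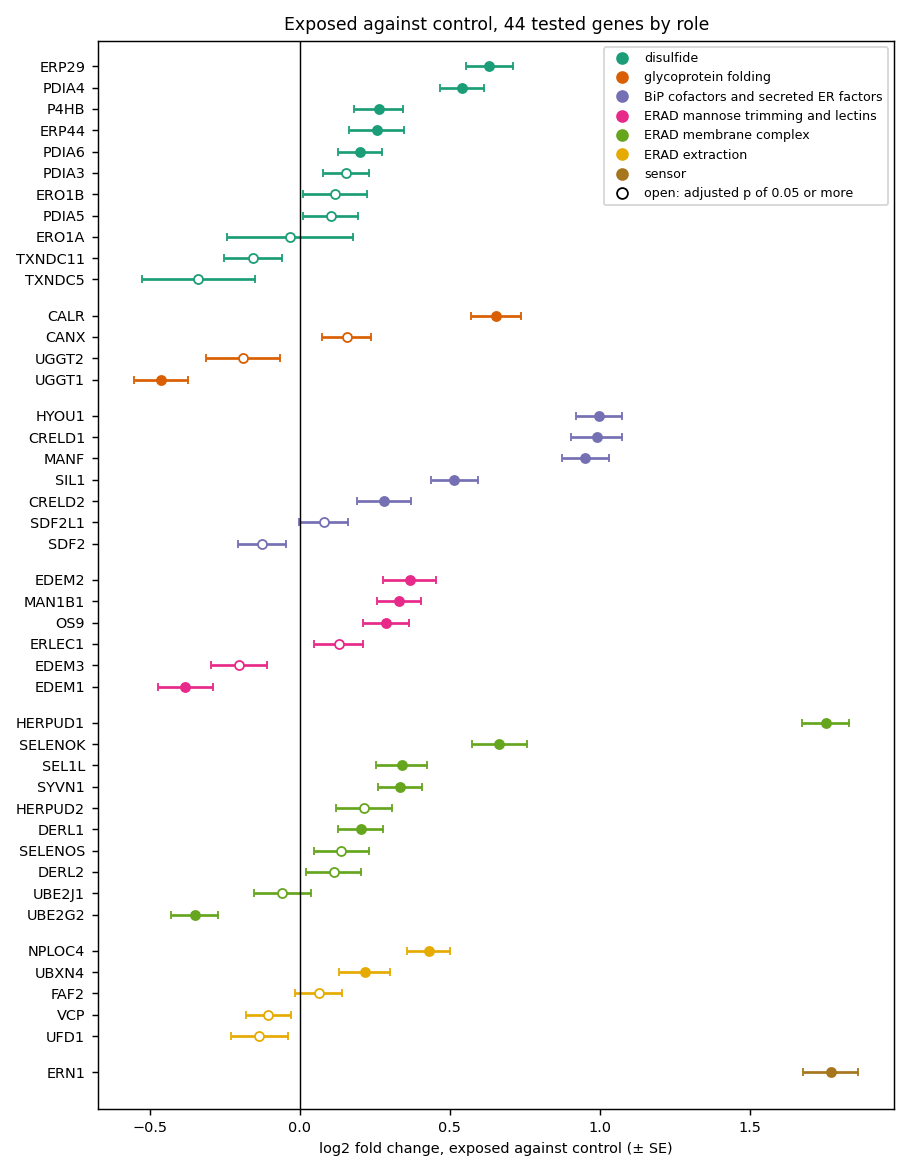
Log2 fold change of each of the 44 tested genes, exposed against control, with its standard error (horizontal bars), grouped by role. Filled points passed edgeR's test at an adjusted p under 0.05 and open points did not; ERN1 and HERPUD1 lie at 1.77 and 1.75, and UGGT1, EDEM1 and UBE2G2 are the filled points left of zero.

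Short stretches of promoter show what some of these genes carry in common. Stretches came from RefSeq windows (build GRCh38.p14) that run from 250 bases before to 50 after each annotated start. By symbol, 41 of the 45 genes matched a window, 7 of them with more than 1 start. The motifs searched on both strands were the ER stress element ERSE (CCAAT and CCACG with 9 bases between them), ERSE-II (ATTGG and CCACG with 1 base between them), the UPR element UPRE (TGACGTGG) and the core of the amino acid response element (TGATG and AA with 1 base between them). Each stretch below reads 5′ to 3′ on the gene's own strand, with the fixed bases of the motifs in capitals, and was chosen because it holds an ERSE or an ERSE-II.
HERPUD1, chr16:56931951-56932050, plus strand: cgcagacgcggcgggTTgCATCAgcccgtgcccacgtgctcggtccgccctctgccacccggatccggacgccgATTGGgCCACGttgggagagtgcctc
HYOU1, chr11:119057259-119057408, minus strand: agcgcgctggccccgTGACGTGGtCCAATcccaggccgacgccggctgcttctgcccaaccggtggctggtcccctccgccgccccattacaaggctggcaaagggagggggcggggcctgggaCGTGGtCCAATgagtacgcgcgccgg
SDF2L1, chr22:21642099-21642139, plus strand: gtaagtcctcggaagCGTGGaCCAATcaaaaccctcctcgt
CALR, chr19:12938369-12938417, plus strand: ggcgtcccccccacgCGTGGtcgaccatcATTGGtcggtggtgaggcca
CRELD2, chr22:49918539-49918587, plus strand: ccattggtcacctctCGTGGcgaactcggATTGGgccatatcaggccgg
PDIA6, chr2:10812838-10812886, minus strand: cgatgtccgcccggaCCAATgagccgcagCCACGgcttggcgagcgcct
ERO1B, chr1:236282168-236282208, minus strand: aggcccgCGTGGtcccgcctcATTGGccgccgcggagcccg

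HERPUD1 holds an ERSE-II and, further from the start, the amino acid response core in reverse. HYOU1 holds an ERSE-II at 2 places, and the one further from the start overlaps its UPRE by 5 bases. CANX also holds an ERSE. The stretches of CRELD2 and PDIA6, the latter before its second RefSeq start, lie inside the span that the count table gives for the gene. An ERSE was found in 5 of 41 members (12.2%), against 0.142% of 11243 tested genes with a window, and an ERSE-II in 3 of 41 (7.32%), against 0.133%. A UPRE was found in 5 members (12.2%, against 1.14%): HYOU1, TXNDC5, TXNDC11, UBE2J1 and VCP. The amino acid response core was found in HERPUD1 alone of the 41 (2.44%), against 2.75% of tested genes. CCAAT by itself stood in 61.0% of members and 42.5% of tested genes, and CCACG in 73.2% and 56.3%, counts that include the copies inside an ERSE. Members with a match were not all called higher: 5 of the 8 members with an ERSE or ERSE-II rose (HERPUD1, HYOU1, CALR, CRELD2 and PDIA6), while SDF2L1, CANX and ERO1B did not pass. Of all 41 matched members 21 rose. Of the 5 with a UPRE only HYOU1 rose, and the other 4 did not pass. The ER stress motifs are known from genes of the kind listed here, so their higher shares among the members are no independent evidence. The shares were not tested. A match in letters is a description and does not show that a factor binds.

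ERN1 encodes IRE1, a kinase and RNase of the ER membrane that splices the XBP1 message. With HERPUD1 it had the highest log2 fold change of the 44 genes, and the difference between them was smaller than their SEs. HERPUD1 was the higher of both without control replicate 1, exposed replicate 2 or exposed replicate 3. ERN1 (ENSG00000178607, GRCh38 chromosome 17, 64039142 to 64130819, minus strand) was at 20.2, 19.5 and 19.3 CPM in control replicates 1 to 3 and at 61.7, 74.6 and 65.2 CPM in exposed replicates 1 to 3. The lowest exposed library was over 3 times the highest control. The fold was 3.41 (log2 1.77 ± 0.09 SE, edgeR adjusted p = 2.4e-16). Even so, its level per kb of gene length was the second lowest of the tested members in controls, 1.81 ± 0.0443 CPM per kb, and 6.18 ± 0.616 in exposed cells (SD, n = 3 per group).

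Genes around ERN1 in the UPR did not all move the same way. There were 16 tested transducers and transcription factors of the response that are not on the list described here. Of these, 8 rose, against 21.8% of all genes tested, and 4 fell, close to the 22.1% of all genes. Their median log2 fold change was 0.22. DDIT3, which encodes the stress factor CHOP, went from 10.9 ± 3.27 to 149 ± 12.8 CPM and TRIB3, a pseudokinase induced with it, from 108 ± 15.8 to 496 ± 65.4 CPM (SD, n = 3 per group). XBP1, the transcription factor whose message ERN1 splices, fell from 981 ± 18.3 to 610.4 ± 22.2 CPM, and CREB3L4, a membrane-bound factor of the ATF6 type, from 109 ± 7.03 to 71.6 ± 2.82 CPM (SD, n = 3 per group). Gene counts do not separate spliced from unspliced XBP1. The other sensors shifted less than ERN1: ATF6 had a log2 fold change of 0.32 (edgeR adjusted p = 0.002) and EIF2AK3 one of 0.26, which did not pass (edgeR adjusted p = 0.082). Whether their changes differ from that of ERN1 was not tested.

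In the group of BiP cofactors and secreted ER factors, which also holds CRELD1 and CRELD2, 5 of 7 genes rose, against 21.8% of all genes tested. Of those that rose, 3 did so by close to 2-fold. The other 2 genes of the group did not pass, and its median log2 fold change was 0.52. HYOU1, a large HSP70-like protein that releases nucleotide from BiP (ENSG00000149428, chromosome 11, 119044189 to 119057202, minus strand), was at 242, 239 and 213 CPM in controls and 467, 481 and 437 CPM in exposed replicates 1 to 3. All exposed libraries lay far above all controls, and the log2 fold change was 0.997 ± 0.077 (SE, edgeR adjusted p = 3.0e-12). SIL1, the other nucleotide exchange factor of BiP, was at 55.8, 59.5 and 53.2 CPM in controls and 82.4, 77.7 and 80.8 CPM in exposed libraries, without overlap (log2 0.52 ± 0.08 SE). BiP itself, HSPA5, is not a member and rose by 1.33 ± 0.08 on the log2 scale (SE).

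MANF, a small secreted protein that binds BiP (ENSG00000145050, chromosome 3, 51385047 to 51389397, plus strand), stood at 46.8, 49.4 and 49.2 CPM in controls and at 100.3, 89.6 and 91.3 CPM in exposed replicates 1 to 3. Its fold was 1.93 (log2 0.95 ± 0.08 SE, edgeR adjusted p = 1.5e-11). CRELD1, a membrane protein with EGF-like repeats (ENSG00000163703, chromosome 3, 9933822 to 9945413, plus strand), was at 35.2, 37.6 and 34.5 CPM in controls and 76.3, 64.9 and 71.8 CPM in exposed libraries (log2 0.99 ± 0.09 SE, edgeR adjusted p = 3.4e-11). Groups of both genes were clearly apart. CRELD2, the soluble paralog known for its induction by ER stress, moved less, from 33.4, 39.0 and 35.0 CPM to 46.0, 41.2 and 43.3 CPM (log2 0.28 ± 0.09 SE, edgeR adjusted p = 0.011). That smaller call ended without control replicate 1, control replicate 3 or exposed replicate 1 (log2 0.24, 0.26 and 0.24; edgeR adjusted p = 0.064, 0.053 and 0.051).

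SDF2L1 and SDF2, which form complexes with an ER J-domain protein, were the 2 that did not pass. SDF2L1, also known as a UPR target, was at 64.4, 74.5 and 69.9 CPM in controls and 79.2, 67.6 and 74.0 CPM in exposed libraries, and the groups overlapped (log2 0.08 ± 0.08 SE, edgeR adjusted p = 0.46). SDF2 was at 110, 114 and 103 CPM in controls and 111, 91.4 and 98.0 CPM in exposed libraries (log2 -0.12 ± 0.08 SE). The ERSE-II of SDF2L1 printed above therefore stands beside a level that did not pass the test, unlike those of HERPUD1 and HYOU1, although SDF2L1 was called higher with a correction for GC content and gene length that was added after seeing the data (log2 0.19, edgeR adjusted p = 0.012). Among 9 HSP70, HSP90 and J-domain chaperones of the ER that are not members, 6 rose, against 21.8% of all genes tested, and 3 did not pass. They included DNAJB9, a J-domain partner of BiP, at 1.07 ± 0.12, DNAJC10 at 0.39 ± 0.09 and HSP90B1, the ER form of HSP90, at 0.22 ± 0.08 (log2 ± SE). The groups of HSP90B1 overlapped, at 500 to 645 CPM in controls and 637 to 701 CPM in exposed libraries.

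**Figure D2:**
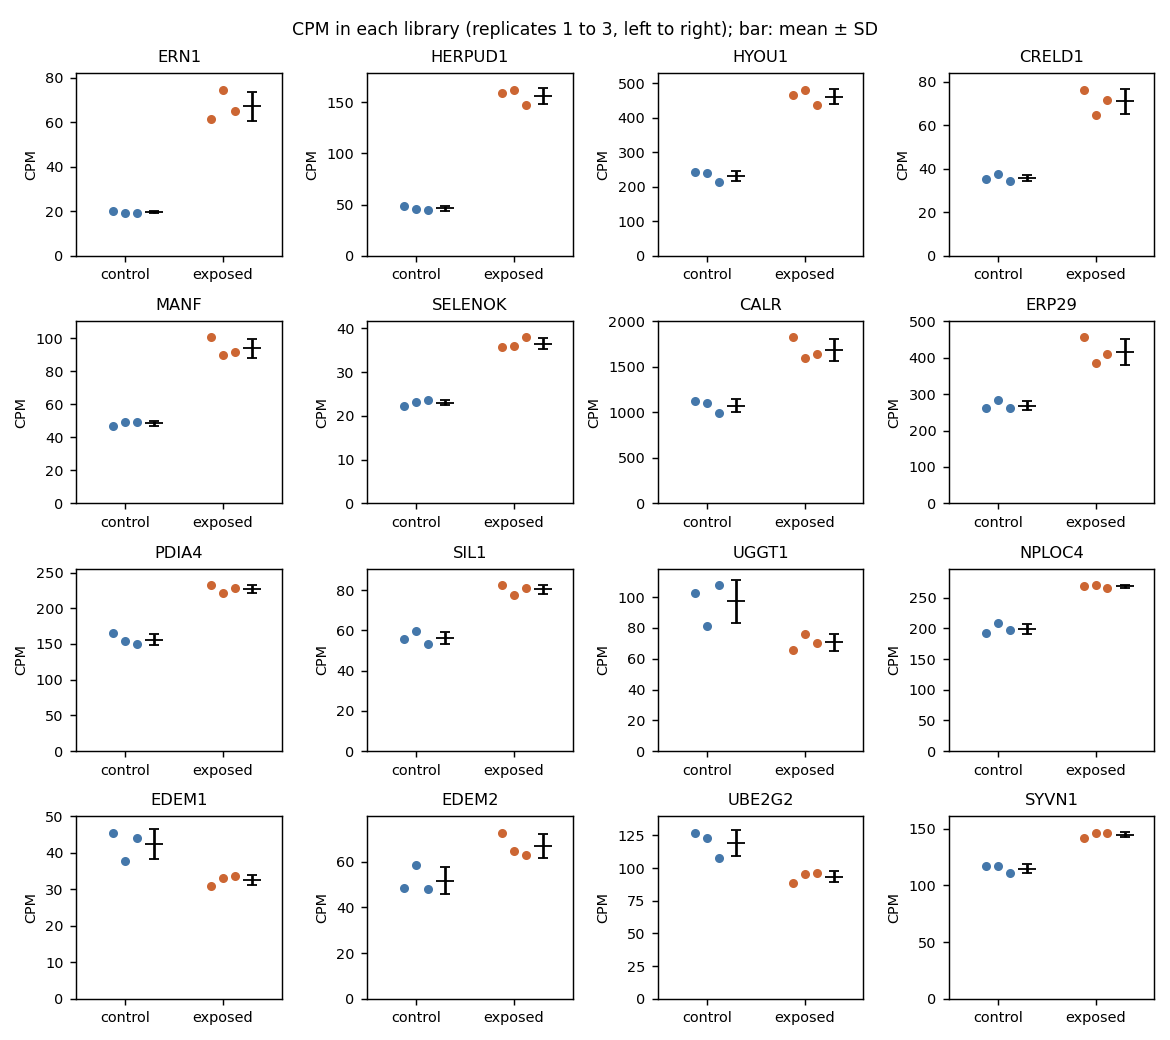
CPM in each library for the 16 members with the largest log2 fold change among those that passed and did not overlap; points are replicates 1 to 3 from left to right, and the bar beside them is the mean ± SD, on axes that start at 0. In 13 panels all exposed libraries lie above all controls, and in those of UGGT1, EDEM1 and UBE2G2 below them.

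The disulfide group holds the enzymes that make and shuffle disulfide bonds and their relatives. In it, 5 of 11 genes rose, against 21.8% of all genes tested, and the other 6 did not pass (median log2 fold change 0.15). ERP29, a PDI relative that acts as a chaperone (ENSG00000089248, chromosome 12, 112013316 to 112023451, plus strand), was at 260.5, 283 and 261 CPM in controls and 455, 384 and 409 CPM in exposed replicates 1 to 3. It rose 1.55-fold (log2 0.63 ± 0.08 SE, edgeR adjusted p = 6.0e-08). PDIA4, also called ERp72, was at 165, 154 and 149 CPM in controls and 232, 221 and 228 CPM in exposed libraries (log2 0.54 ± 0.07 SE, edgeR adjusted p = 3.2e-07). Neither gene's groups overlapped.

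The abundant isomerase P4HB, which is PDI itself, rose by less, from 1222, 1313 and 1142 CPM to 1568, 1412 and 1435 CPM (log2 0.26 ± 0.08 SE, edgeR adjusted p = 0.0096). PDIA6 went from 107 to 115 CPM in controls to 124 to 128 CPM in exposed libraries (log2 0.20 ± 0.07 SE), and ERP44, which retrieves clients from the Golgi, from 29.1 to 32.7 CPM to 34.9 to 38.4 CPM (log2 0.26 ± 0.09 SE). Groups of these 3 genes did not overlap, but their calls were not steady. That of P4HB ended without control replicate 3 or exposed replicate 1 (edgeR adjusted p = 0.091 and 0.051). Those of PDIA6 and ERP44 ended without control replicate 3 (0.11 and 0.099) or exposed replicate 3 (0.0595 and 0.092), and that of PDIA6 also without exposed replicate 1 (0.064), all edgeR adjusted p.

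PDIA3, the isomerase that works with the lectin chaperones, did not overlap between groups either, at 348 to 396 CPM in controls and 397 to 417 CPM in exposed libraries, yet it did not pass (log2 0.15 ± 0.08 SE, edgeR adjusted p = 0.099). PDIA3 passed without control replicate 1 (log2 0.21, edgeR adjusted p = 0.044) and by DESeq2 (log2 0.16, adjusted p = 0.049). Its processed pseudogene PDIA3P1 held 4.95% as many counts. PDIA5 (log2 0.10), TXNDC11 (-0.16), and TXNDC5 (-0.34 ± 0.19 SE) also did not pass, nor did ERO1B, the paralog of ERO1A, at 16.7, 15.2 and 17.2 CPM in controls and 17.8, 17.3 and 18.1 CPM in exposed libraries (0.12). TXNDC5, another thioredoxin-domain enzyme of the ER, had the lowest measured level of the tested members, 0.937 ± 0.13 CPM per kb in controls and 0.742 ± 0.0685 in exposed cells (SD, n = 3 per group). BLOC1S5-TXNDC5 overlaps TXNDC5 on the same strand and held 0 counts. How reads that lie in both were counted is not given, so the level and fold change of TXNDC5 may leave out such reads.

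ERO1A, the oxidase that recharges PDI, had the widest spread of the 44 genes among exposed libraries, with a coefficient of variation of 27.4% against a median of 5.62%. It was at 161, 150.1 and 144 CPM in controls and 138, 114 and 193 CPM in exposed replicates 1 to 3, so that exposed replicate 3 lay above all controls and the other two below them. The log2 fold change was -0.03 ± 0.21 (SE, edgeR adjusted p = 0.92), and without exposed replicate 3 it was -0.25 (edgeR adjusted p = 0.036). ERO1A is also known as a hypoxia-induced gene. After this spread was seen, 12 hypoxia-induced genes were set beside it: CA9, NDRG1, VEGFA, PGK1, ENO1, LDHA, SLC2A1, BNIP3, PDK1, P4HA1, EGLN3 and ANKRD37. Of these 12, 5 fell, against 22.1% of all genes tested, and 1 rose, against 21.8%. The summed level of the 12 was 7181 to 7928 CPM in controls and 5202, 3700 and 5518 CPM in exposed replicates 1 to 3, again lowest in replicate 2 and highest in replicate 3. Most of this sum was ENO1, PGK1 and LDHA, at means of 3998, 1590 and 1009 CPM in controls. Exposed replicate 2 was also the lowest exposed library for each of the 12 genes. The part of the 12 genes in the level of ERO1A was not tested.

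**Figure D3:**
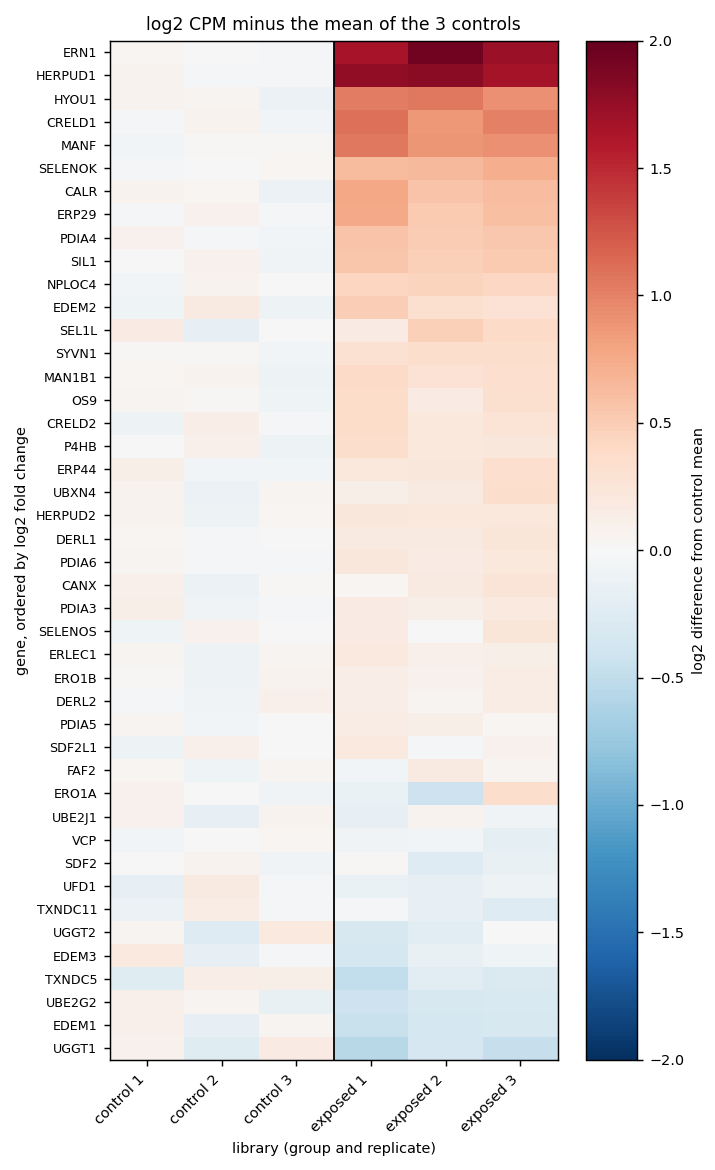
Log2 CPM of each of the 44 tested genes in each library minus the mean of its 3 controls (colour), with genes ordered by log2 fold change from top to bottom and libraries by group and replicate from left to right. ERN1 and HERPUD1 are the darkest rows in all 3 exposed libraries, and ERO1A changes sign between exposed replicate 2 and exposed replicate 3.

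Of the 4 genes for lectin chaperones and the enzymes that return glycoproteins to them, 1 rose, 1 fell and 2 did not pass. These counts are close to the shares of all genes tested, 21.8% higher and 22.1% lower. CALR, the soluble lectin chaperone calreticulin (ENSG00000179218, chromosome 19, 12938578 to 12944489, plus strand), was at 1122, 1105 and 989 CPM in controls and 1821, 1593 and 1643 CPM in exposed replicates 1 to 3. It rose 1.57-fold (log2 0.65 ± 0.08 SE, edgeR adjusted p = 1.2e-07). CANX, the membrane-bound lectin calnexin, was at 656, 563 and 626 CPM in controls and 632, 693 and 733 CPM in exposed libraries, which overlapped (log2 0.16 ± 0.08 SE, edgeR adjusted p = 0.12), and passed without exposed replicate 1 (log2 0.22, edgeR adjusted p = 0.048). UGGT1, which puts a glucose back on misfolded glycoproteins so that the lectins bind them again (ENSG00000136731, chromosome 2, 128091200 to 128195677, plus strand), was at 102, 81.4 and 108 CPM in controls and 65.5, 76.3 and 69.9 CPM in exposed libraries.

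Of the 44 genes UGGT1 had the lowest log2 fold change, -0.46 ± 0.09 (SE, edgeR adjusted p = 8.8e-05), and exposed replicate 2 came within a few CPM of control replicate 2. Its paralog UGGT2 was at 16.2, 13.1 and 17.9 CPM in controls and 12.5, 13.4 and 15.5 CPM in exposed libraries and did not pass (log2 -0.19 ± 0.12 SE, edgeR adjusted p = 0.22). Control replicate 2 was the lowest control for 16 of the 44 genes and the highest for 15. The genes where it was lowest had a median gene length of 6094.5 bases, and those where it was highest one of 4011 bases. Over the 44 genes, the log2 ratio of control replicate 2 to the mean of the other controls had a Pearson r of -0.352 with log2 gene length. Neither these lengths nor this r was computed for the other controls or over all genes. Control replicate 2 differed from control replicates 1 and 3 by 14.9 and 11.5 (chi-square per degree of freedom), and those from each other by 7.11. Without control replicate 2, UGGT2 and EDEM3 were also called lower (log2 -0.30 and -0.28, edgeR adjusted p = 0.038 and 0.0086), which made 5 falls in place of 3. With the correction for GC content and gene length, 27 members were higher and 3 lower, PDIA3, CANX, SDF2L1, ERLEC1 and HERPUD2 being added, while 4714 and 3736 of all genes were higher and lower.

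ERAD genes as a whole had 10 of 21 tested members higher, against 21.8% of all genes tested, and 2 lower, against 22.1%. The other 9 did not pass, and the median log2 fold change of the 21 was 0.20. In the first step, mannose trimming and recognition of the trimmed glycan, 3 of 6 genes rose, 1 fell and 2 did not pass. MAN1B1, the mannosidase that starts trimming, was at 229.6, 235 and 209.8 CPM in controls and 292, 273 and 283 CPM in exposed libraries (log2 0.33 ± 0.07 SE, edgeR adjusted p = 4.6e-04). OS9, a lectin that reads the trimmed glycan, was at 224, 219.8 and 203 CPM in controls and 279, 242 and 269 CPM in exposed libraries (log2 0.29 ± 0.08 SE, edgeR adjusted p = 0.0026). ERLEC1, the other such lectin, was at 54.3, 48.7 and 54.2 CPM in controls and 59.6, 56.0 and 56.5 CPM in exposed libraries and did not pass (log2 0.13 ± 0.08 SE, edgeR adjusted p = 0.20).

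The EDEM mannosidases split. EDEM2 was at 48.5, 58.6 and 48.1 CPM in controls and 72.6, 64.6 and 62.8 CPM in exposed replicates 1 to 3, and rose (log2 0.37 ± 0.09 SE, edgeR adjusted p = 0.0010). EDEM1, the family member known as a target of XBP1, was at 45.5, 37.7 and 43.9 CPM in controls and 30.9, 33.1 and 33.7 CPM in exposed libraries, and fell (log2 -0.38 ± 0.09 SE, edgeR adjusted p = 0.0010). EDEM3 was at 65.4, 51.3 and 55.6 CPM in controls and 44.6, 51.6 and 53.6 CPM in exposed libraries, with overlap, and did not pass (log2 -0.20 ± 0.09 SE, edgeR adjusted p = 0.075). EDEM1 and EDEM2 thus changed in opposite directions without overlap of their groups.

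Of 10 tested genes of the ERAD membrane complex, 5 rose, against 21.8% of all genes tested, 1 fell, against 22.1%, and 4 did not pass. HERPUD1, a ubiquitin-like membrane protein that organises the ligase complex (ENSG00000051108, chromosome 16, 56932048 to 56944863, plus strand), was at 48.6, 45.2 and 44.7 CPM in controls and 158, 162 and 147 CPM in exposed replicates 1 to 3. It rose 3.37-fold (log2 1.75 ± 0.08 SE, edgeR adjusted p = 5.5e-18), and the lowest exposed library was over 3 times the highest control. SELENOK, a selenoprotein of the ER membrane that binds the p97 complex, was at 22.3, 23.2 and 23.5 CPM in controls and 35.7, 35.9 and 37.9 CPM in exposed libraries (log2 0.67 ± 0.09 SE, edgeR adjusted p = 4.1e-07). Its partner SELENOS did not pass (log2 0.14 ± 0.09 SE, edgeR adjusted p = 0.23).

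The ligase at the centre of the complex and its cofactor rose by similar, small amounts. SYVN1, the ubiquitin ligase HRD1, was at 117, 117 and 111 CPM in controls and 142, 146 and 146 CPM in exposed libraries (log2 0.33 ± 0.07 SE, edgeR adjusted p = 3.3e-04). SEL1L, which links it to the lumenal lectins, passed although control replicate 1 and exposed replicate 1 were level: it was at 162, 129.5 and 144 CPM in controls and 162, 202 and 189 CPM in exposed libraries (log2 0.34 ± 0.09 SE, edgeR adjusted p = 0.0015). DERL1, a channel-forming rhomboid-like protein, was at 84.5, 80.2 and 83.3 CPM in controls and 93.8, 94.0 and 97.7 CPM in exposed libraries (log2 0.20 ± 0.07 SE, edgeR adjusted p = 0.026). The call of DERL1 ended without control replicate 3 or exposed replicate 3 (edgeR adjusted p = 0.071 and 0.078). DERL2 was at 28.6, 27.8 and 31.6 CPM in controls and 32.2, 30.5 and 32.5 CPM in exposed libraries and did not pass (log2 0.11). DERL3 had counts of 2, 6 and 0 across the controls and of 0, 2 and 0 across the exposed libraries, where a count of 0 allows up to 0.0804 to 0.0969 CPM (3 counts per library).

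Neither ubiquitin-conjugating enzyme of the list was called higher. UBE2G2 was at 127, 123 and 108 CPM in controls and 88.8, 95.7 and 96.2 CPM in exposed replicates 1 to 3, below all controls (log2 -0.35 ± 0.08 SE, edgeR adjusted p = 4.8e-04). UBE2J1 did not pass (log2 -0.06 ± 0.10 SE, edgeR adjusted p = 0.66).

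In the extraction step, 2 of 5 genes rose, against 21.8% of all genes tested, and 3 did not pass. NPLOC4, a subunit of the adaptor that brings ubiquitinated clients to p97, was at 192, 208 and 198 CPM in controls and 269.8, 270.5 and 266 CPM in exposed libraries (log2 0.43 ± 0.07 SE, edgeR adjusted p = 1.1e-05). Its adaptor partner UFD1 was at 31.2 to 39.7 CPM in controls and 31.3 to 32.7 CPM in exposed libraries (log2 -0.13 ± 0.09 SE, edgeR adjusted p = 0.26). VCP, the p97 ATPase itself, was at 335, 350.0 and 355 CPM in controls and 331, 334 and 303 CPM in exposed libraries. The groups of VCP did not overlap, but the test was not passed (log2 -0.10 ± 0.07 SE, edgeR adjusted p = 0.27). Of the membrane adaptors of p97, UBXN4 rose (log2 0.22 ± 0.08 SE, edgeR adjusted p = 0.038) and FAF2 did not pass (log2 0.06 ± 0.08 SE, edgeR adjusted p = 0.54). The call of UBXN4 ended without control replicate 2, control replicate 3 or exposed replicate 3 (edgeR adjusted p = 0.11, 0.064 and 0.197).

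Paralogs and functional partners were compared by the log2 ratio of their CPM within each library, which depends little on library scaling. Of 11 such pairs, 3 of which combine the same 3 EDEM genes, 8 had ratios that did not overlap between groups. For single genes that share was 51.9% of all tested, and no such share was computed for ratios. The exact two-sided permutation test over 3 against 3 libraries cannot give a p under 0.1, and those 8 pairs reached 0.1 (0.138 after adjustment over the 11 pairs), so none could pass 0.05. HERPUD1 over its little-studied paralog HERPUD2 moved from 0.85 ± 0.079 to 2.38 ± 0.077 (SD, n = 3 per group). HERPUD2 was at 26.6, 23.6 and 26.1 CPM in controls and 29.8, 29.3 and 29.6 CPM in exposed libraries (log2 fold change 0.21 ± 0.09 SE, edgeR adjusted p = 0.061). CRELD2 and CRELD1 had nearly equal counts in controls, with log2 ratios of -0.07, 0.06 and 0.02, and the ratio was -0.72, -0.65 and -0.72 in exposed libraries.

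EDEM1 over EDEM2 went from -0.28 ± 0.3 to -1.02 ± 0.175, and EDEM2 over EDEM3 from -0.15 ± 0.315 to 0.42 ± 0.248 (log2 ratio, SD, n = 3 per group), with control replicate 2 nearest to the exposed libraries in both. CALR over CANX went from 0.80 ± 0.158 to 1.30 ± 0.2, and UGGT2 over UGGT1 from -2.59 ± 0.034 to -2.32 ± 0.165 (log2 ratio, SD, n = 3 per group). Differences were 0.21 for SDF2L1 over SDF2 and -0.17 for EDEM1 over EDEM3, again without overlap, although control replicate 1 and exposed replicate 1 of the latter nearly touched (-0.52 in both). Ratios of ERO1A over ERO1B, ERLEC1 over OS9 and DERL1 over DERL2 overlapped, with differences of -0.18, -0.15 and 0.09 and exact permutation p of 0.6, 0.2 and 0.2.

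**Figure D4:**
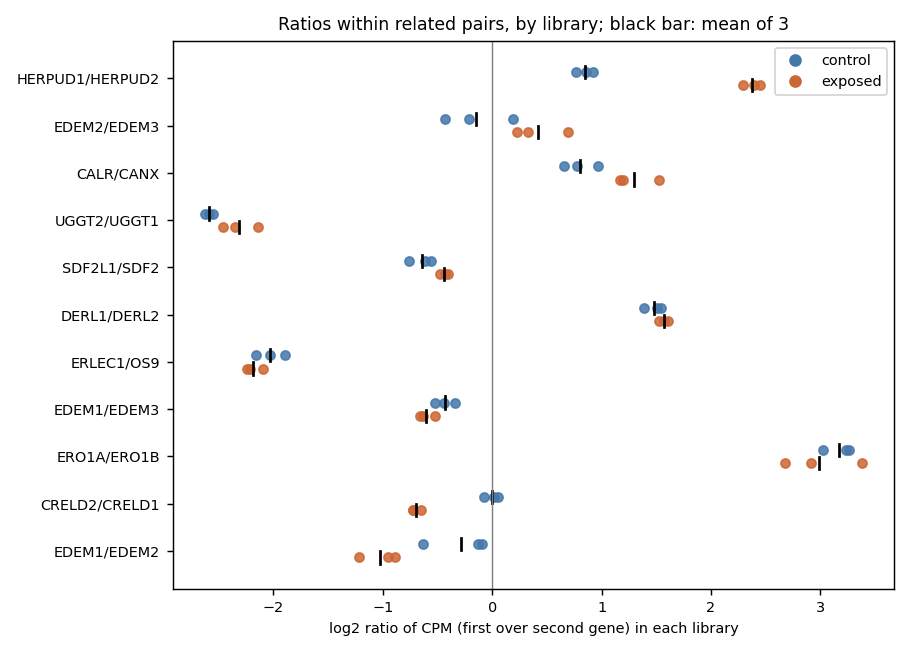
Log2 ratio of CPM of the first over the second gene of each pair in each library (points; blue for control, orange for exposed) and the mean of each group (black bars), ordered by the difference between groups. The ratio of HERPUD1 to HERPUD2 is higher by 1.53 in exposed libraries and that of EDEM1 to EDEM2 lower, with a difference of -0.74.

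Levels per kb of gene length ranked the members very differently from their changes. CALR was highest at 395 ± 26.7 CPM per kb in controls and 621 ± 44.2 in exposed cells, followed by P4HB at 231 ± 16.1 and 278 ± 15.9 (SD, n = 3 per group). CANX at 98.7 ± 7.64, ERP29 at 87.0 ± 4.15 and PDIA3 at 86.4 ± 6.06 CPM per kb in controls were within each other's spread or close to it, and in exposed cells ERP29 at 135 ± 11.7 lay above CANX at 110.0 ± 8.18 and PDIA3 at 96.1 ± 2.47 (SD, n = 3 per group). HERPUD1 moved from 8.96 ± 0.406 to 30.2 ± 1.53 CPM per kb (SD, n = 3 per group), passing SYVN1, at 26.3 ± 0.438 in exposed cells. Summed over the members, the level was 1502 to 1598 CPM per kb in controls and 1992 to 2156 in exposed libraries, a ratio of 1.32. By role the ratio of summed CPM per kb was 1.47 for the glycoprotein folding genes, 1.38 for the BiP cofactors and secreted factors, 1.25 for the disulfide group, 1.33 for the ERAD membrane complex, 1.18 for mannose trimming and 1.04 for extraction. Without length scaling the order of the first 2 turned, with ratios of summed CPM of 1.36 for the glycoprotein folding genes and 1.58 for the BiP cofactors and secreted factors. The glycoprotein folding sum was mostly CALR, and the median log2 fold change of those 4 genes was -0.02.

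**Figure D5:**
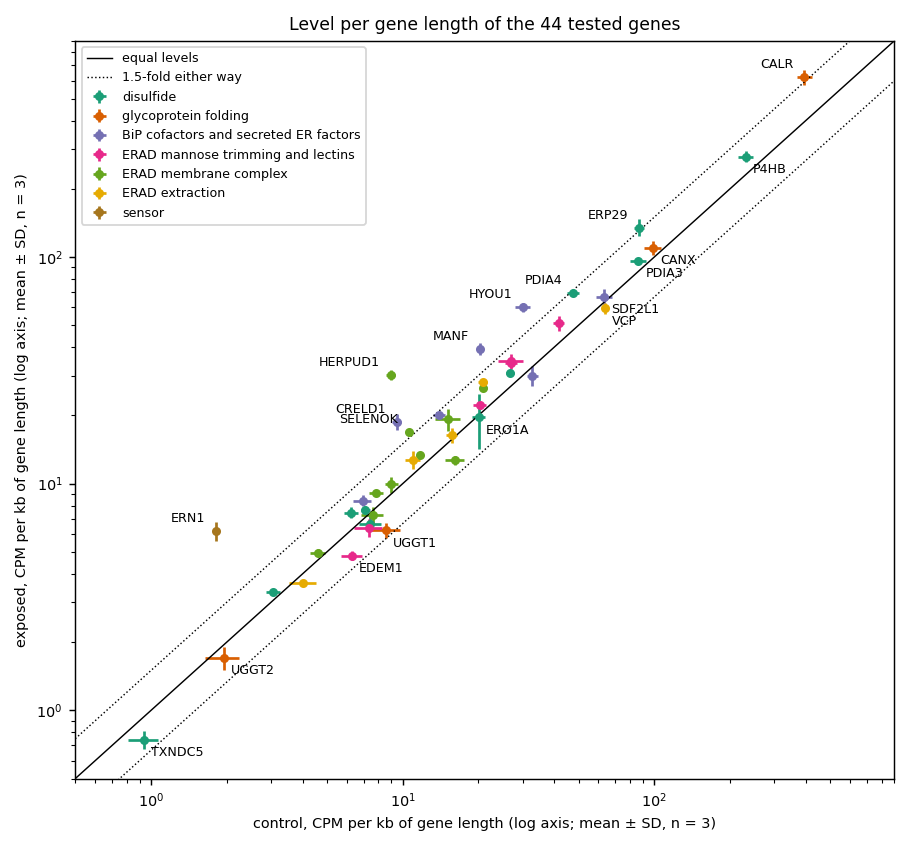
Level of each of the 44 tested genes in CPM per kb of gene length, exposed (vertical) against control (horizontal), both on log axes, as mean ± SD of 3 libraries and coloured by role. The solid line marks equal levels and the dotted lines 1.5-fold either way; CALR and P4HB are the highest, TXNDC5 and ERN1 the lowest in controls, and ERN1 and HERPUD1 lie furthest above the dotted line.

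Across the 44 genes the log2 fold change had a Pearson r of 0.29 with GC content, -0.11 with log2 gene length and 0.20 with log2 mean CPM. The same values over all genes tested were 0.04, 0.01 and 0.16. By rank (Spearman), the coefficients were 0.413, -0.254 and 0.305 across the 44 genes and 0.058, 0.004 and 0.164 over all genes tested. These are correlations across genes of the same 6 libraries, which are not independent replicates, and they are given as a description.

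Neighbouring steps of the secretory pathway, taken from lists that share no tested gene with the members, gave a mixed picture. The counts below stand against 21.8% of all genes tested that rose and 22.1% that fell. Of 44 tested genes of other ERAD ligases, conjugating enzymes and extraction factors, 20 rose and 5 fell (median log2 fold change 0.20), the same median as for the members. UBXN1, a p97 cofactor, was at 0.70 ± 0.08 and the conjugating enzyme UBE2N at -0.68 ± 0.08 (log2 ± SE). Of 31 genes of N-glycan transfer and trimming 6 rose and 11 fell (median -0.06), with the Golgi mannosidases MAN1A1 at -1.45 ± 0.09 and MAN1C1 at -0.74 ± 0.13, and the oligosaccharyltransferase subunit STT3A at 0.34 ± 0.07 and ALG12 at 0.45 ± 0.11 (log2 ± SE).

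Genes for translocation into the ER, signal recognition and signal peptidase had 3 of 24 higher, 5 lower and a median of 0.002. The signal recognition subunit SRP9 was at -0.58 ± 0.08, TRAM2 at -0.52 ± 0.09, the receptor subunit SRPRA at 0.32 ± 0.07 and the translocon gene SEC61A2 at 0.68 ± 0.13 (log2 ± SE). Other PDI-family and thiol or prolyl-isomerase genes of the ER had 5 of 20 higher and 4 lower (median 0.06), among them TXNDC12 at 0.44 ± 0.14, FKBP9 at 0.38 ± 0.08, TMX1 at -0.47 ± 0.10 and FKBP7, under 1 CPM, at -1.69 ± 0.50 (log2 ± SE). Of 14 ER-phagy genes 4 rose and 1 fell (median 0.02), with CDK5RAP3 at 0.85 ± 0.15, CCPG1 at 0.52 ± 0.14, DDRGK1 at 0.29 ± 0.08 and ATL3 at -0.46 ± 0.08 (log2 ± SE). Differences between these lists and the members were not tested.

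With the strand setting not given, reads of overlapping genes cannot be told apart. For 11 members a gene overlapping in coordinates held more than 10% as many counts. SYVN1 overlaps the abundant FAU and MRPL49, which were at 0.06 and -0.08 (log2 fold change) and did not pass, and CRELD2 overlaps ALG12, at 0.45. SDF2 and ERO1B overlap SUPT6H and GPR137B, which held 213% and 217% as many counts. Those were at -0.15 and 0.09 (log2 fold change) and did not pass. DERL3, with a mean of 1.7 counts per library, overlaps SMARCB1, with a mean of 3367. SIL1 and HERPUD2 overlap the non-coding genes SNHG4 and AC018647.2, which fell by 1.19 and 1.68 on the log2 scale. TXNDC11 overlaps SNN, at 0.92. TXNDC5 is not among the 11, because BLOC1S5-TXNDC5, which overlaps it on the same strand, held 0 counts. ERN1, HERPUD1, HYOU1, MANF, CRELD1, CALR, ERP29, PDIA4 and SELENOK had no overlapping gene with more than 10% of their counts.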

How the data were processed

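The authors deposited whole-number read counts per gene for 6 libraries, made against GRCh38 per the submitters' processing notes. For aligner, counter, annotation release and strand setting: not given in the sources used here. CPM per kb used the gene lengths the authors deposited. Coordinates of all 45 members equal those of GENCODE 29. Groups and replicate numbers came from titles, and nothing says that replicates came from separate cultures, so p-values measure the spread between these samples.

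The edgeR version was 4.0.16, under R 4.3.3. Its filterByExpr (minimum count 10, total 15) kept 17337 of 58735 genes, TMM factors ran from 0.948 to 1.04, and exposed libraries were set against controls in a robust quasi-likelihood fit, with Benjamini-Hochberg adjustment over all genes tested and a threshold of 0.05. SE is the log2 fold change divided by the square root of F. The script was tested on simulated data. Pair ratios added 0.5 CPM and used scipy 1.17.1. DESeq2 1.42.0 and limma 3.58.1 served as alternatives.

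All 44 tested members are named. Values per library are given for up to 16 that passed without overlap and with at least 1 CPM, for ERN1 and for the pairs. Others with values by library were chosen after these were seen. From each list of related genes the 2 highest and 2 lowest log2 fold changes that passed are named, except a few genes that are not reported here. Members and lists were chosen with earlier results of these data known. Low counts kept DERL3 alone out of the test, and TXNDC5 was tested on few counts, 99 to 161 per library (SE of its log2 fold change 0.19).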

Additional observations from a re-analysis of the deposited data

How the results depend on the processing

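Of 22 rises, 16 passed in all 15 settings that set no minimum fold, as did the 3 falls; P4HB, PDIA6, ERP44, CRELD2, DERL1 and UBXN4 lost their call in at least 1. The settings were: size factors of the DESeq2 type, a low-count filter left out or made stricter, the tests of limma-voom and DESeq2, a block on replicate number, each library left out in turn, protein-coding genes alone, removal of mitochondrial genes, and a correction for GC content and gene length that was added after seeing the data. No called member changed direction in any of them. The number of members called higher ran from 16 to 22 and of those called lower from 3 to 5 when a library was left out, which leaves 2 in its group. DESeq2 called 24 members higher, adding PDIA3 and HERPUD2, DESeq2-type size factors 23, adding HERPUD2, and the correction for GC content and length 27. With a minimum change of 1.5-fold 8 members were higher and 0 lower, and with edgeR's test against a 1.5-fold change 5 were higher and 0 lower, also at an unadjusted p under 0.05; DESeq2 and limma-voom with the same minimum fold also gave 8 and 0. The ratio of summed CPM per kb lay between 1.29 and 1.35 when a library was left out and was 1.28 without scaling for length. Same-numbered libraries did not deviate together (r of -0.074, -0.08 and 0.005 between deviations from group means), and 0 of 6 libraries correlated best with its own number, so the numbers were not taken as pairs. The replicate block gave 18 members higher and 3 lower, without PDIA6, ERP44, DERL1 and UBXN4 (edgeR adjusted p = 0.0689, 0.0578, 0.0709 and 0.0773), and 3359 and 3420 of all genes in place of 3778 and 3832. Low counts kept DERL3 alone of the members out of the test, and TXNDC5 had the fewest counts of those tested, 99 to 161 per library.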
